A study of Mus musculus with 18 samples.

Results

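The 8 keratin genes Krt5, Krt14, Krt15, Krt7, Krt8, Krt18, Krt19 and Krt20 were followed through every part of a mouse bladder atlas. They were chosen by name as keratins of the urothelium, with no measured value in the rule, and are 8 of the 26324 genes listed in every table. All 8 were measured in all 18 samples. The samples came from C57BL/6 mice with no genetic change or treatment stated, and each droplet library or section pooled several animals. The 5 whole-bladder cell libraries were 1 from 22-month males (3 pooled), 1 from 3-month males (3 pooled), 2 from 12-month mice and 1 from 24-month mice, each of these 3 pooling 2 females with 2 males. The nuclei library had the same pool of sexes at 12 months. Detrusor, the muscle wall, was measured in a detrusor-only cell library (3 females) and a detrusor-enriched one (2 females with 2 males), both at 14 months. There were 4 Visium sections, 2 of 22-month and 2 of 14-month males, with 4 animals each in the labels. Bulk RNA-seq covered 3 libraries of intact tissue and 3 of dissociated cells, each labelled with 3 females of 12 months. Samples of a group are separate by label only, so p-values measure the spread between these samples, which may be partly technical.

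Keratins form the intermediate filaments of epithelia. Each filament is built from pairs of an acidic type I chain and a basic type II chain, so the 2 types are made together. Of the 8, Krt5, Krt7 and Krt8 are type II and Krt14, Krt15, Krt18, Krt19 and Krt20 are type I. In the urothelium, the stratified lining of the bladder, Krt5 and Krt14 are used as markers of basal cells, Krt7, Krt8, Krt18 and Krt19 are simple-epithelium keratins found through the layers, and Krt20 marks the umbrella cells at the lumen. Umbrella cells also carry plaques of the uroplakins Upk1a, Upk1b, Upk2 and Upk3a, so the uroplakin share of a cell's RNA served here as an ordering that does not use any keratin.

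In GRCm38 (mm10), Krt5 (chr15:101707069-101712905), Krt7 (chr15:101412403-101427806) and Krt8 (chr15:101996711-102004342) lie in the type II cluster on chromosome 15. Krt18 (chr15:102028216-102032026) is the type I gene beside it, 23.9 kb from Krt8. The other 4 type I genes lie on chromosome 11: Krt14 (chr11:100203162-100207510), Krt15 (chr11:100131759-100135949), Krt19 (chr11:100140810-100145926) and Krt20 (chr11:99428385-99438153). RefSeq promoter windows of GRCm38.p6 were matched for 6 of the 8 by symbol, all but Krt15 and Krt19. The 250 bases before the start are shown for 4 members that part company along the uroplakin ordering below, Krt5 going down and Krt7, Krt18 and Krt20 going up, written 5′ to 3′ on the gene's strand. Capitals mark matches, on either strand, to the motifs that were searched.
Krt5 (chr15:101712906-101713155, - strand): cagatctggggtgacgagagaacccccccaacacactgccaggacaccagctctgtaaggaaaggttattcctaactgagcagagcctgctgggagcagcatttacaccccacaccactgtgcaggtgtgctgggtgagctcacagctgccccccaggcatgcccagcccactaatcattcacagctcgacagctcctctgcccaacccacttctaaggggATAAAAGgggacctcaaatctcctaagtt
Krt7 (chr15:101412153-101412402, + strand): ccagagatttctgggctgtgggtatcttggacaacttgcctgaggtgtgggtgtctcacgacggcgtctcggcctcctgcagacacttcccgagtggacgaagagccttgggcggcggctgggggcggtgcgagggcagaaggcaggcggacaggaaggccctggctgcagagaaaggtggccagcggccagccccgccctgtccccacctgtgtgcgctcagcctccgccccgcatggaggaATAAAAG
Krt18 (chr15:102027966-102028215, + strand): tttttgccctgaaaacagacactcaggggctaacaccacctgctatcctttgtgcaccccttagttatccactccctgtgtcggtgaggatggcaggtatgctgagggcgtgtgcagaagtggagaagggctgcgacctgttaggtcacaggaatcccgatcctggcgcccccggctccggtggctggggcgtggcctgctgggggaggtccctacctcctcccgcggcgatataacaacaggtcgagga
Krt20 (chr11:99438154-99438403, - strand): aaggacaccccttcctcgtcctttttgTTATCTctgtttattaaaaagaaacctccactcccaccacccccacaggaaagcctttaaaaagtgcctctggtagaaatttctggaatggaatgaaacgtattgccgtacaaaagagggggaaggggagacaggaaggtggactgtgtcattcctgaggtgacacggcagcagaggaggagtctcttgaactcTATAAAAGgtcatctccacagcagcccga
The motifs were TATAAA (the core promoter box, held by 12.4% of 32851 promoter windows of this length), ATAAAAG (a relaxed form of it, chosen after these windows were seen, 4.83%, which can overlap the first), TGANTCA (AP-1, 6.75%), AACNGGTT (Grainyhead, 1.79%) and AGATAA (bound by the factors of the GATA family, 9.99%). Krt20 held TATAAA starting 29 bases before the start, the overlapping ATAAAAG, and AGATAA on the other strand. Krt5 held ATAAAAG starting 29 bases before the start and Krt7 the same letters 7 bases before it. The Krt8 window, not shown, held AGATAA starting 239 bases before the start. Of the 5 motifs, none was found in the Krt18 window, and TGANTCA and AACNGGTT were in none of the 6 windows. The Krt14 window (chr11:100206031-100206280, - strand) lies within the Krt14 gene as placed above. A match is a description of the letters and not evidence of a site in use.

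Cells were grouped into classes from markers that include no keratin, and a class is called "like" the type whose markers it carries. Urothelial-like cells numbered 1135 (22 months), 1475 (3 months), 2090 and 631 (12 months) and 1878 (24 months). Depth is given in UMIs (unique molecular identifiers, 1 per captured RNA molecule). The male libraries had medians of 4098 and 3163 UMIs per cell, the mixed-sex ones of 12502 to 16878. The 2 male libraries also have shorter barcodes and another gene list, so the sex of the pool and the preparation cannot be told apart. Droplet libraries shared at most 64 barcodes, or 1.00% of the smaller. The markers that define the class were present in all 5, Cdh1 at 91.3 to 243 CPM, Epcam at 229 to 371 CPM, Upk1a at 1478 to 4292 CPM and Upk3a at 2422 to 3344 CPM (CPM, the class's summed counts scaled to a common total). In the second 12-month library a cluster of 109 cells with 14 of 14 urothelial markers raised stayed unnamed, because the pericyte gene Rgs5 was among its leading genes.

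Urothelial-like cells spent most of their keratin RNA on 5 of the 8 genes. Over the 5 whole-bladder libraries, Krt15 stood at 5010 ± 1831 CPM, Krt18 at 3478 ± 752, Krt7 at 3124 ± 1021, Krt19 at 3102 ± 695 and Krt8 at 1384 ± 404 (mean and SD, n = 5). Krt5 stood at 559 ± 188 CPM, Krt20 at 30.6 ± 18.0 and Krt14 at 2.19 ± 1.68. UMIs do not scale with transcript length, but other differences in capture between genes are not corrected, so this order is that of these cell libraries. In all 4 sections, also counted in UMIs, Krt7 stood above Krt15, at 1581 to 1860 against 922 to 1791 CPM. From Krt15 down to Krt19 each neighbour in that order differed by less than its SD, although Krt15 was above Krt18 in 5 of 5 libraries. The steps down to Krt5, to Krt20 and to Krt14 separate ranges that do not overlap. Together the 8 made up 94.6% to 97.6% of all keratin UMIs in these cells, and the next keratins were Krt4 (218 to 373 CPM) and Krt23 (68.6 to 443 CPM). UMIs of the type I genes among the 8 outnumbered those of the type II genes 2.02 to 2.53 to 1. The ratio was 1.69 in urothelial-like cells of the detrusor-enriched library and 1.46 in urothelial-like nuclei. It is a ratio of RNA and not of protein chains.

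By library, in the order 22 months, 3 months, 12 months (1 and 2) and 24 months, Krt15 measured 7183, 6811, 3925, 3780 and 3349 CPM. Krt7 measured 4040, 4405, 2618, 2320 and 2238 CPM, and Krt19 3759, 3902, 2633, 2885 and 2333 CPM. All 3 were higher in both male libraries than in any mixed-sex library. Of 13226 genes, 71.5% had no overlap between the 2 kinds of library, as had 7 of the 8 keratins, so this separation is not particular to keratins. Krt8 ran the other way, at 933, 1083, 1645, 1922 and 1336 CPM, with the male libraries lowest. Krt18 measured 3483, 4721, 3406, 2991 and 2790 CPM, with the male libraries again on top. Krt5 was 833 and 631 CPM in males and 378, 560 and 393 CPM in the mixed-sex libraries. Krt20 was 18.7, 25.7, 26.1, 62.3 and 20.2 CPM, highest in the second 12-month library. In the detrusor-enriched library 394 urothelial-like cells gave Krt15 2715, Krt18 2449, Krt7 2022, Krt19 1723, Krt8 1387, Krt5 674, Krt20 23.8 and Krt14 5.22 CPM.

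Against fibroblast-like cells, the commonest stromal class, 7 of the 8 were higher in urothelial-like cells in all 5 libraries. The difference of log2(CPM + 1) ranged from 3.77 ± 0.80 for Krt20 to 4.62 ± 1.25 for Krt18 (mean and SD, n = 5). Krt20 stood at 0.492 to 2.00 CPM in fibroblast-like cells, and with log2(CPM + 10) its difference was 1.77. Krt14 differed by 0.54 ± 1.85 and was higher in 4 of 5 libraries. Classes come from clusters of the same cells, so these differences are a description with no test. The share of all genes higher in all 5 libraries was not measured, so the 7 of 8 is not set against it. The keratin level of fibroblast-like cells was set against the urothelial-like level of the same library. In the 22-month male library it was 0.951% (Krt8) to 3.24% (Krt20) of the urothelial-like level, Krt14 apart, and for the 4 uroplakins 1.54% to 2.31%. In the 24-month library it was 7.11% (Krt18) to 9.90% (Krt20), and for the uroplakins 6.73% to 8.63%. In the first 12-month library it was 6.41% (Krt20) to 10.5% (Krt8), and for the uroplakins 8.46% to 11.2%. In each of these libraries the keratin and uroplakin ranges overlapped, but some keratins lay outside the uroplakin range. Whether these shares are expression in fibroblasts was not tested, so they are not read as such. Shares of the 3-month library are not given here. The second 12-month library was less even, from 1.76% (Krt20) and 4.11% (Krt5) to 14.7% (Krt19), with uroplakins at 9.57% to 18.3%. Other classes were not all alike either. The 26 blood-endothelial-like cells of the first 12-month library held Krt15 at 58.2% and Krt5 at 50.8% of the urothelial-like level. They held Krt7, Krt8, Krt18 and Krt19 at 26.1% to 27.96% and the uroplakins at 24.5% to 29.1%. Krt20 and Krt14 each stood at 5.33 CPM there, on fewer than 3 UMIs. The 53 macrophage-like cells of the same library held 6 keratins at 20.02% (Krt7) to 31.6% (Krt15), Krt20 at 55.5% and Krt14 at 0 UMIs. Their uroplakins stood at 12.2% (Upk3a) to 22.1% (Upk1b). In the 22-month male library the same 2 classes held Krt15 at 2.18% and 2.25%. In the detrusor-only library, with no urothelial-like class, fibroblast-like cells held Krt15, Krt5 and Krt14 at 0 UMIs, Krt7 at 0.109, Krt8 and Krt18 each at 0.290, Krt20 at 0.0363 and Krt19 at 3.95 CPM.

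**Figure D1:**
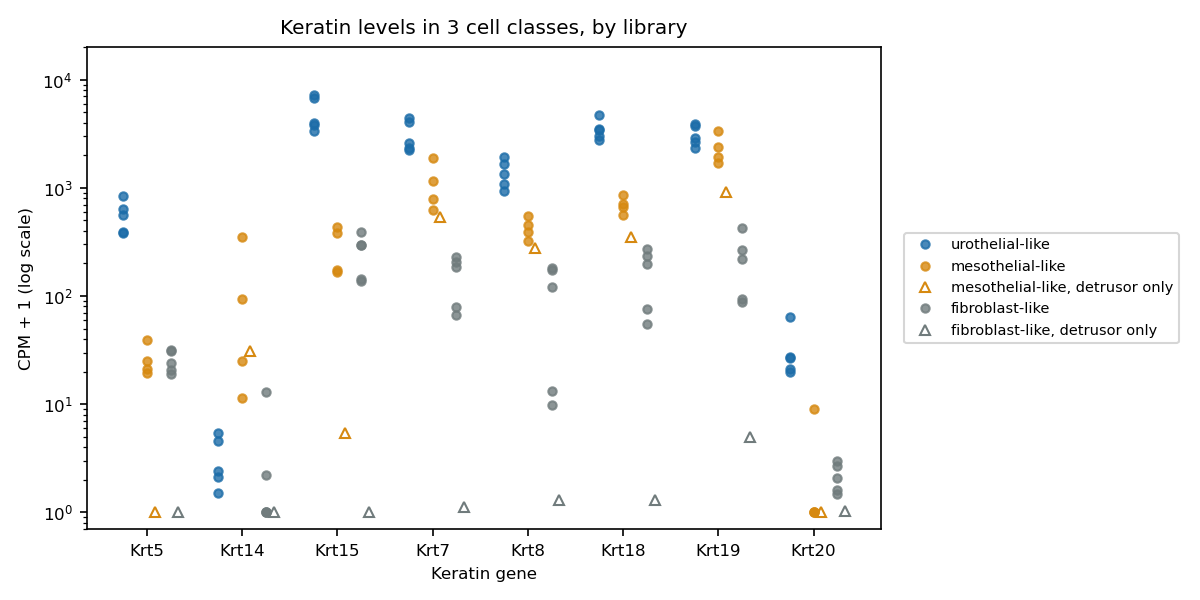
Level of each keratin as CPM + 1 on a log scale in urothelial-like, mesothelial-like and fibroblast-like cells. Circles are whole-bladder libraries and triangles the detrusor-only library. Krt14 is the keratin whose mesothelial-like values (10.5 to 346 CPM) lie above all its urothelial-like values (0.508 to 4.40 CPM).

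Mesothelial-like cells, the covering of the outer bladder wall, held a set with Krt19, Krt7, Krt18 and Krt8 in falling order. Krt19 was the highest of the 8 there, at 3328, 1935, 2399 and 1681 CPM in the 4 whole-bladder libraries with this class (67, 28, 12 and 29 cells). In the 22- and 3-month male, 12-month (1) and 24-month libraries, in that order, Krt7 measured 1891, 1161, 789 and 622 CPM. Krt18 measured 666, 848, 709 and 556 CPM, and Krt8 386, 553, 454 and 322 CPM. Krt5, Krt15 and Krt20 were at most 38.4, 430.5 and 7.97 CPM. Krt18 and Krt8 were not particular to this class in these libraries. Krt18 stood at 961 CPM in pericyte-like cells of the 3-month library and 912 CPM in blood-endothelial-like cells of the first 12-month library. It stood at 602 CPM in T- and NK-like cells of the 24-month library. Krt8 stood at 515 CPM in smooth-muscle-like cells of the first 12-month library. The detrusor-only library, in which urothelial RNA is nearly absent (Upk1a, Upk2 and Krt5 at 0 in its 130 mesothelial-like cells), gave the same set, with Krt19 916, Krt7 534, Krt18 349, Krt8 276, Krt14 29.8 and Krt15 4.45 CPM. Upk3a was 1.78 CPM in these cells, while Upk1b stood at 518 CPM and Upk3b, a mesothelial marker, at 2194 CPM.

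Krt14, the basal partner of Krt5 in other stratified epithelia, went most against the urothelial label. In urothelial-like cells it had 21, 16, 44, 13 and 13 UMIs per library, against 52, 5, 3 and 3 UMIs in mesothelial-like cells of the 4 libraries that had them. As levels, that was 4.40 (95% Poisson interval 2.73 to 6.73) against 346 (259 to 454) CPM in the 22-month library and 3.52 (2.01 to 5.72) against 92.2 (29.9 to 215) CPM in the 3-month library. The detrusor-enriched library gave 5.22 (3.92 to 6.82) CPM in urothelial-like and 129 (104 to 158) CPM in mesothelial-like cells. These intervals cover counting error only. Krt14 UMIs were found in 25.4% of 67 mesothelial-like cells of the 22-month library, at a median of 1979 UMIs, and in 1.23% of urothelial-like and 0.138% of fibroblast-like cells at medians of 4098 and 2359 UMIs. The share of mesothelial-like cells was 7.14% of 28 in the 3-month, 8.33% of 12 in the first 12-month and 6.90% of 29 in the 24-month library. In the second 12-month library, which had no mesothelial-like class, fibroblast-like cells held Krt14 at 12.1 and Upk3b at 125 CPM, against at most 1.21 and 12.9 CPM in the other 4. Krt14 UMIs were in 2.11% of these 142 fibroblast-like cells. Whether mesothelial cells were among them was not tested.

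Ordered by uroplakin share, the keratins split into 2 directions. Within each library the urothelial-like cells were divided into quintiles by the share of their UMIs from the 4 uroplakins, and the highest and lowest quintiles were compared with library as a block, with the uroplakins left out. Krt5 and Krt15 fell and Krt7, Krt8, Krt18, Krt19 and Krt20 rose (7 of the 7 keratins tested, adjusted p under 0.05, edgeR quasi-likelihood). Of all 9249 genes tested, 30.8% were called, 15.2% higher and 15.6% lower. Median depth also rose along the order, from 2535 to 13455 UMIs in the lowest quintiles to 3738 to 19579 in the highest. With cells thinned to 1000 UMIs, 6 of 6 tested keratins were called, 4 higher and 2 lower, where 16.5% of 3252 genes were called, 7.32% higher and 9.16% lower. Krt20, with few counts at this depth, was not among those tested, so its rise was not checked at equal depth.

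Among the falling genes, Krt15 went from 9807, 8888, 5859, 5715 and 4759 CPM in the lowest quintile to 5148, 5100, 1509, 2233 and 1457 CPM in the highest, with libraries in the order given above. The fitted log2 change was -1.27 (SE 0.23, adjusted p 0.0125), a call that was lost without the filter on low counts. Krt15 was lower in 5 of 5 libraries at each of the 4 steps. Krt5, the basal type II keratin, went from 985, 767, 502, 738 and 520 to 719, 539, 245, 403 and 245 CPM, a log2 change of -0.73 (SE 0.12, adjusted p 0.000925), also lower at every step in 5 of 5 libraries. Krt14 failed the filter on low counts. Of its UMIs, 17, 12, 28, 10 and 11 lay in the lowest quintile, and 1, 0, 3, 1 and 0 in the highest.

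Among the rising genes, Krt20 changed most. It went from 8.73, 16.7, 14.0, 45.1 and 8.45 CPM to 38.1, 38.6, 39.8, 82.6 and 30.6 CPM, a log2 change of 1.46 (SE 0.16, adjusted p 7.84e-06). Krt20 UMIs were nevertheless spread over all quintiles. Krt18 went from 2075, 3085, 2555, 2308 and 2196 to 4861, 6172, 4341, 4091 and 3451 CPM, a log2 change of 0.97 (SE 0.09, adjusted p 7.28e-06), and rose at each step in 5 of 5 libraries. Krt8, the usual type II partner of Krt18, went from 552, 789, 1432, 1689 and 1101 to 1263, 1352, 1661, 2353 and 1470 CPM (log2 change 0.67, SE 0.16, adjusted p 0.0139). Its middle step, from the third to the fourth quintile, was upward in 2 of 5 libraries. Without the 3-month male library its call was lost, at an adjusted p of 0.109.

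Krt19 had a log2 change of 0.65 (SE 0.08, adjusted p 4.83e-05), from 2664, 2994, 2267, 2627 and 1860 to 4757, 4744, 2993, 3388 and 2750 CPM. Krt7 rose by 0.51 (SE 0.06, adjusted p 1.94e-05), from 3435, 3925, 2140, 2074 and 2006 to 4675, 4708, 3159, 2834 and 2651 CPM. The summed level of the 8 went from 12453 to 20481 CPM in the lowest quintile to 12054 to 22654 CPM in the highest. Type I UMIs per type II UMI went from 2.38 to 2.93 in the lowest quintile down to 1.75 to 2.43 in the highest, as Krt15 fell.

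**Figure D2:**
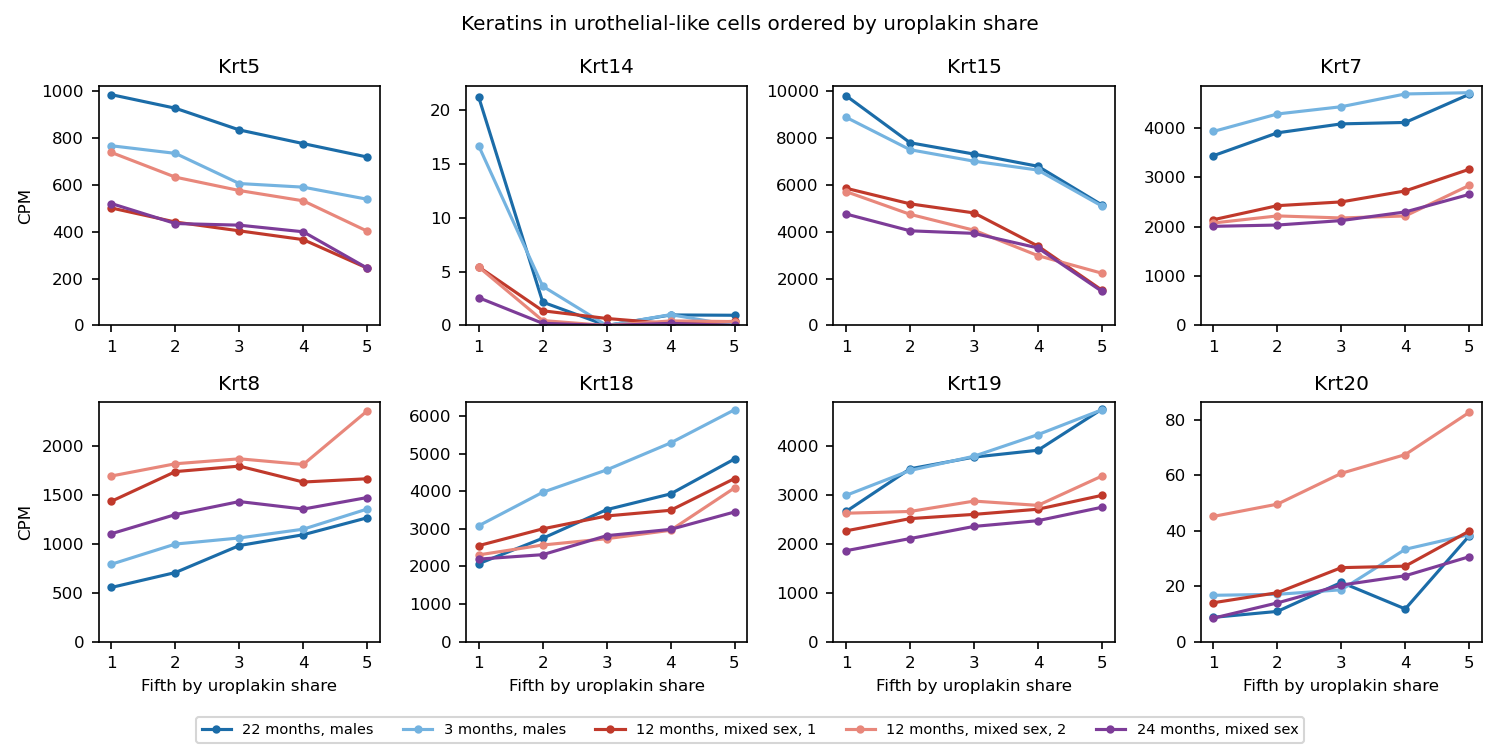
CPM of each keratin (y axis from 0) in urothelial-like cells of each uroplakin quintile, 1 lowest to 5 highest. Each line is 1 whole-bladder library. Krt5 and Krt15 go down from quintile 1 to 5 in every library and Krt18 goes up at every step, while Krt14 drops to near 0 after quintile 1.

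The change from the lowest to the highest quintile differed between the 2 kinds of library for 4 of the 7 keratins tested. This used an interaction term added after seeing the data (edgeR, 0.778% of 9249 genes called). Krt5 fell by 0.97 on the log2 scale in the mixed-sex libraries and measured -0.31 in the male ones, where it was not called (adjusted p 0.0521). The difference was -0.67 (SE 0.11, adjusted p 0.0112). Krt8 rose by 0.40 in mixed-sex and 1.15 in male libraries (difference -0.76, SE 0.12, adjusted p 0.012). Krt18 rose by 0.78 and 1.28 (difference -0.51, adjusted p 0.0169) and Krt19 by 0.48 and 0.92 (difference -0.45, adjusted p 0.0192). Depth, barcode design and the sex of the pool all move with the kind of library and cannot be told apart.

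Other epithelial gene lists were read against the 30.8% of all genes called. All 11 tested members of the basal and basement-membrane list fell, with a median log2 change of -0.95 against -0.02 over all genes, from Col17a1, a hemidesmosomal collagen, at -4.29 to Shh at -0.34. Of 16 tested desmosome and hemidesmosome genes, 7 fell, with Col17a1 lowest, and 2 rose, led by Evpl (envoplakin, 0.85), with 7 not called. Of 12 urothelial transcription factors, 3 fell, with Klf4 lowest at -2.01, and 1 rose, Grhl3 (1.09), with 8 not called, a share close to that of all genes. Of 8 other keratins tested, 3 fell, with Krt6a lowest at -2.76, and 2 rose, with Krt78 highest at 0.69. The dissociation-response list, early genes induced by tissue handling, also fell, with 13 of 16 called lower and none higher. Its summed level was 9023 to 20664 CPM in the lowest and 5477 to 12266 CPM in the highest quintiles, and its part in the keratin changes was not tested.

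Markers of other cells were summed in the same quintiles. The fibroblast list was 73.9 to 2787 CPM in the lowest and 72.8 to 2790 CPM in the highest quintiles, and the macrophage list 29.9 to 231 and 34.2 to 284 CPM. Pdgfra, which defines fibroblasts, was at most 8.73 and 21.0 CPM in these, and the leukocyte gene Ptprc at most 4.17 and 4.70 CPM. The smooth-muscle list was 15.6 to 360 CPM and 12.4 to 158 CPM. In the second 12-month library it went from 360 to 12.4 CPM and the blood-endothelial list from 70.6 to 6.55 CPM. The T and NK list went from 26.2 to 7.62 and from 25.02 to 9.40 CPM in the 22- and 3-month libraries. The mesothelial list, which holds Upk3b, went from 56.1 to 86.4 CPM up to 173 to 250.5 CPM. The part of these lists in the keratin changes was not tested.

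Likeness over the 25 quintile sums, with library means removed, was described by Pearson's r among 5076 genes with a mean of at least 20 CPM. The points share libraries and depth, so no p is given. Krt5 and Krt15 were each among the other's 3 most alike genes (r = 0.973). Beside them stood Gsto1, a glutathione transferase (0.967 with Krt5 and 0.978 with Krt15), Trf, transferrin (0.969 with Krt5), and Aldh3a1, an aldehyde dehydrogenase (0.974 with Krt15). Krt18 and Krt19 also named each other (0.970). Krt18 was closest to Ctsh, cathepsin H (0.980), and Akr1b3, aldose reductase (0.973), and Krt19 to the glutathione S-transferases Gsta2 (0.970) and Gstm1 (0.964). Krt8 was closest to Gsta2 (0.932), Lypd3 (0.929) and Pvrl4, nectin-4 (0.923). Krt7 was closest to S100a6 (0.964), Ldhb (0.961) and B2m (0.949), and Krt20 to Fabp5, a fatty-acid binding protein (0.928), Tmem123 (0.916) and Hmgn3 (0.914). Among the genes most like Krt14 were Peg3 (0.895) and Lmo4 (0.890), on few Krt14 counts.

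Keratin pairs were also counted in single cells. With each cell thinned to 1000 UMIs, Krt20 was found in 1.14%, 1.19%, 1.48%, 6.35% and 1.17% of cells holding Krt5, and in 1.34%, 1.62%, 2.11%, 5.86% and 1.76% of all urothelial-like cells. Shallower cells were left out, 15 and 117 of them in the 22- and 3-month libraries and 0 in the others. Krt18 was found in 92.6%, 95.6%, 93.6%, 90.5% and 89.3% of cells holding Krt8 and in 91.7%, 94.9%, 92.1%, 88.6% and 88.3% of all of them. Cells with both Krt5 and Krt20 numbered 7, 7, 10, 16 and 7, too few to rank these shares. Krt5 was found in 1.75% to 3.12% of fibroblast-like cells thinned alike. The Krt18 shares are not ranked either, because they differ by little and rest on 1 random draw of UMIs. In another draw of 1000 UMIs, Krt18 was found in 95.7% of all urothelial-like cells of the 3-month library. At this depth a Krt20 share of a few percent says little of single cells. Without thinning, Krt20 UMIs were in 5.46%, 5.02%, 22.1%, 42.0% and 17.3% of urothelial-like cells, and in 0.0835% to 1.08% of fibroblast-like cells at medians of 1625 to 5902 UMIs.

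In nuclei 5 of the 8 keratins lay below all 5 cell libraries in CPM, as did 15.4% of 13226 genes tested. There was 1 nuclei library and so no replicate of the nuclei, and the spread in the fit was taken from the 5 cell libraries. In 1245 urothelial-like nuclei (median 1361 UMIs), Krt15 measured 1894, Krt7 1477, Krt18 1162, Krt19 1036, Krt8 762, Krt5 598, Krt20 35.9 and Krt14 3.42 CPM. For Krt15, Krt7, Krt18, Krt19 and Krt8 this lay below all 5 cell libraries, and for Krt5, Krt20 and Krt14 it lay within their range. In the edgeR fit Krt18 was lower by a log2 change of -2.74 (SE 0.38, adjusted p 0.00296), Krt19 by -2.73 (SE 0.35, adjusted p 0.00237), Krt15 by -2.51 (SE 0.38, adjusted p 0.00371) and Krt7 by -2.20 (SE 0.33, adjusted p 0.00386). Under the assumption that nuclei vary as cell libraries do, 4 of 8 were called lower and 0 higher, where 35.3% of 13226 genes were called, 16.1% higher and 19.3% lower. These p-values place 1 nuclei library against the cell libraries and hold no measure of the spread between nuclei libraries. That fit used TMM normalization, which centres most genes near no change. With library size alone, an alternative added after seeing the data, the median of all genes moved from -0.02 to 1.14 and 89.6% in place of 45.5% of called genes were higher.

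Under that scaling Krt18 (-1.58, adjusted p 0.0242) and Krt19 (-1.58, adjusted p 0.0276) remained lower, against 42.1% of genes called, 37.7% higher and 4.39% lower. Krt15 (-1.40, adjusted p 0.0905) and Krt7 (-1.08, adjusted p 0.141) missed the threshold. Krt8 was -2.13 (SE 0.78, adjusted p 0.0724) with TMM and -0.86 (adjusted p 0.202) with library size. Against the 3 mixed-sex libraries alone, which match the nuclei in sex mix, Krt8 was lower by -2.53 (adjusted p 0.000197) and Krt5 also passed (adjusted p 0.0247), so 6 of 8 were called lower, where 56.3% of 13325 genes were called, 29.7% in the lower direction. Krt5 was -1.03 (SE 0.36, adjusted p 0.0642) with TMM and 0.10 with library size, and Krt20 was -1.05 and 0.23, so their direction rests on the scaling. Krt14 was -0.30 (SE 0.98) and 0.73.

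In the same TMM fit, 3 of the 4 uroplakins were lower in nuclei, from Upk1a (-2.99) to Upk1b (-1.24), and 6 of 9 other keratins, from Krt23 (-6.11) to Krt4 (-1.94). The desmosome and hemidesmosome list had 4 higher, led by Dst (2.25), and 2 lower, with Perp at -2.21, of 17 tested, a share close to the 35.3% of all genes. Fibroblast-like nuclei held Krt15 at 12.8%, Krt7 at 16.9%, Krt8 at 25.3%, Krt18 at 26.7% and Krt19 at 27.5% of the urothelial-like level. Upk2, 1 of the 4 uroplakins, stood at 27.5%. Krt5, Krt20, Krt14 and the other 3 uroplakins are not given here. In that fit the dissociation-response list had a median log2 change of -4.75 and the list of 14 epithelial genes of -1.31. The median over all genes was -0.02. The part of these lists, and of keratins in fibroblast-like nuclei, in the differences was not tested.

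**Figure D3:**
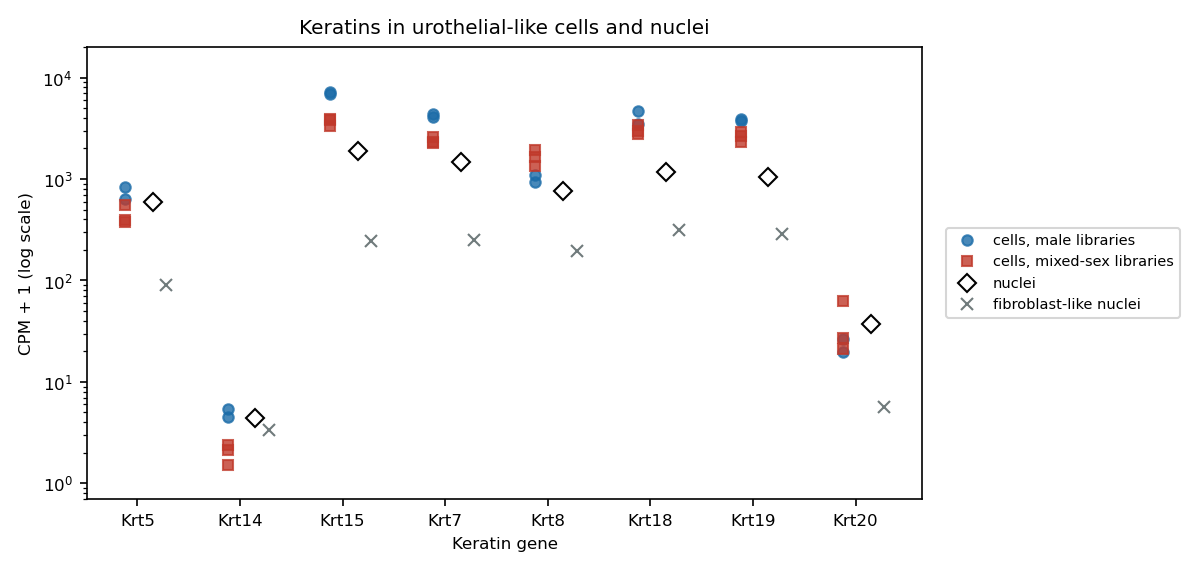
CPM + 1 on a log scale of each keratin in urothelial-like cells of 5 libraries, in urothelial-like nuclei and in fibroblast-like nuclei. The diamonds of Krt15, Krt7, Krt8, Krt18 and Krt19 lie below all cell libraries, and those of Krt5 and Krt20 within them.

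In the sections, spots hold several cells, and 1317 and 1036 spots at 22 months and 937 and 1123 at 14 months were kept. Spot positions were not used here, and spots were ordered by their uroplakin share instead. From the lowest to the highest quintile 7 of 7 tested keratins rose, where 69.3% of 12799 genes were called, 35.8% higher and 33.6% lower. Krt20 rose most, by a log2 change of 3.72 (SE 0.15, adjusted p 9.29e-10), followed by Krt18 (3.20, SE 0.17, adjusted p 6.32e-09), Krt7 (2.83, SE 0.17, adjusted p 2.46e-08) and Krt8 (2.78, SE 0.17, adjusted p 1.7e-08). Krt15 rose by 2.68 (SE 0.19, adjusted p 2.56e-07), Krt19 by 2.35 (SE 0.18, adjusted p 4.12e-07) and Krt5 by 2.32 (SE 0.20, adjusted p 1.29e-06). The order of these changes, with Krt20 and Krt18 first and Krt5 near the end, was not tested as such.

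Per section, with the 22-month sections first, Krt20 went from 15.5, 24.2, 13.1 and 6.47 CPM to 214, 243, 182 and 136 CPM. Krt18 went from 239, 323, 208 and 146 to 1949, 2156, 2219 and 1988 CPM. Krt5 went from 119, 212, 118 and 134 to 511, 671, 817 and 990 CPM. The groups do not overlap for any of the 3, nor for 61.7% of the 12799 genes tested. The last step was not fitted, and the share of all genes that move alike at it was not measured. Median depth was 14788 to 21609 UMIs per spot in the fourth and 31528 to 50692 in the highest quintile. Smooth-muscle markers summed to 6835 to 18009 CPM in the fourth and 1974 to 5913 CPM in the highest. From the fourth to the highest quintile Krt5 went down in 4 of 4 sections, from 581, 765, 853 and 1083 CPM in the fourth, while Krt20 went up in all 4 from 88.4, 119, 60.4 and 37.6 CPM and Krt18 from 1249, 1561, 1203 and 982 CPM. Krt15 went from 1266, 1251, 2035 and 2629 to 1144, 1038, 2050 and 2417 CPM, lower in 3 of 4 sections.

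Across spots, Spearman's rho with the uroplakin share was 0.87 for Krt18 in each section, 0.82 to 0.90 for Krt7, 0.83 to 0.89 for Krt8, 0.69 to 0.87 for Krt19, 0.66 to 0.84 for Krt15, 0.62 to 0.80 for Krt5 and 0.56 to 0.66 for Krt20. For Krt14, with UMIs in 1.34% to 3.42% of spots, it was 0.05 to 0.14. These are descriptions over 937 to 1317 spots that share a section and differ in depth, with median UMIs of 9983 to 13035 in the lowest and 31528 to 50692 in the highest quintiles. Smooth-muscle markers summed to 48101 to 76066 CPM in the lowest and 1974 to 5913 CPM in the highest quintile, fibroblast markers to 4232 to 7011 and 2235 to 3017 CPM. More urothelial cells in a spot and more keratin RNA per cell cannot be told apart. Of the lists, 14 of 14 epithelial genes, 11 of 12 urothelial transcription factors and 8 of 8 other keratins rose. Of all 12799 genes tested, 35.8% were called higher.

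**Figure D4:**
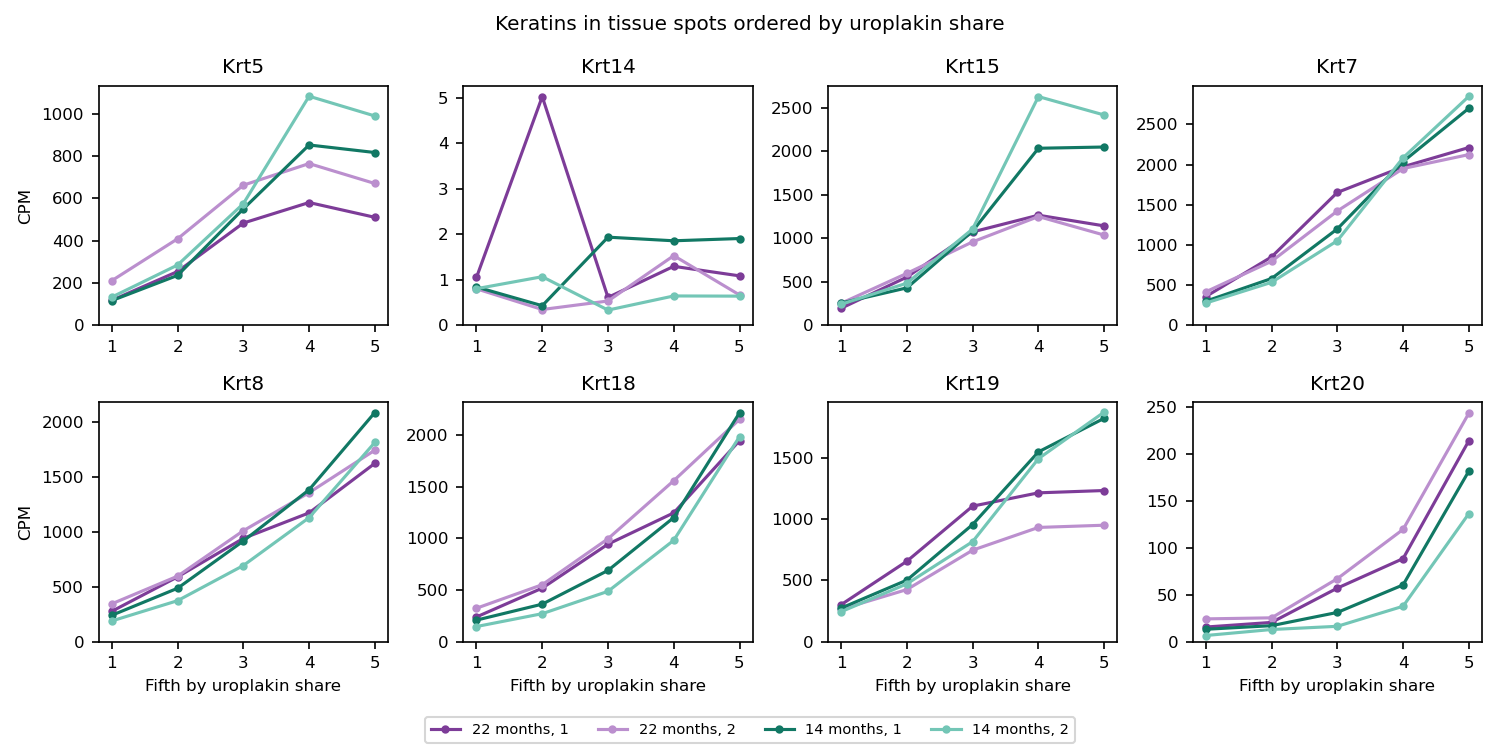
CPM of each keratin (y axis from 0) in spots of each uroplakin quintile, 1 lowest to 5 highest. Each line is 1 section. Krt20 climbs to 136 to 243 CPM in quintile 5, whereas Krt5 is lower in quintile 5 than in quintile 4 in all 4 sections. The step from quintile 4 to 5 was not tested.

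Between ages, whole sections gave Krt15 at 1004 and 922 CPM at 22 months and 1515 and 1791 CPM at 14 months. Krt19 was 1055 and 758 against 1305 and 1288 CPM, and Krt20 was 121 and 129 against 93.8 and 69.2 CPM. Krt5 was 456 and 601 against 640 and 766 CPM, and Krt7 was 1743 and 1581 against 1812 and 1860 CPM. The groups did not overlap for these 5, nor for 51.2% of 14995 genes, and overlapped for Krt8, Krt18 and Krt14. The log2 changes from 14 to 22 months were -0.71 (SE 0.12) for Krt15, -0.46 (SE 0.16) for Krt19 and 0.68 (SE 0.17) for Krt20, with adjusted p of 0.114, 0.248 and 0.196 in edgeR. None of the 8 passed, and 0 (0%) of 14995 genes were called, and 2487 had an unadjusted p below 0.05. With DESeq2 there were 426, among them Krt15 (adjusted p 6.16e-07) and Krt20 (adjusted p 0.0152). Without the first 22-month section edgeR called 300 genes and 2 keratins, Krt15 (adjusted p 0.0496) and Krt19 (adjusted p 0.0424). The other 5 keratins had log2 changes of -0.34 (Krt5) to 0.19 (Krt18), each smaller than 2 SE. Uroplakins had a median change of 0.60 and dissociation-response genes of -1.76 between the same sections, with none called, and the share of urothelium in a section cannot be told apart from level.

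Bulk RNA-seq set dissociated cells against intact tissue. Krt8 stood at 514, 458 and 483 CPM in intact tissue and 663, 834 and 1216 in dissociated cells, a log2 change of 1.01 (SE 0.21, adjusted p 0.00479). Krt15 went from 776, 634 and 681 to 923, 989 and 1313 CPM (log2 change 0.74, SE 0.16, adjusted p 0.00511). Neither pair of groups overlapped, as for 67.9% of 16538 genes. Krt19 went from 520, 380 and 439 to 539, 512 and 760 CPM (log2 change 0.55, SE 0.19, adjusted p 0.0367), with overlap, and lost its call without the second intact (adjusted p 0.119), the third intact (0.099) or the third dissociated library (0.0783). Krt14 had 6, 11 and 4 reads in intact tissue and 23, 29 and 22 in dissociated cells (log2 change 2.43, SE 0.35, adjusted p 0.000688). Thus 4 of 8 were called higher and 0 lower, where 59.2% of 16538 genes were called, 27.9% higher and 31.3% lower.

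The other 4 keratins did not pass. Krt18 was 665, 609 and 627 CPM in intact tissue and 607, 667 and 1020 in dissociated cells (adjusted p 0.128). Krt7 was 1091, 951 and 1012 and then 949, 935 and 1446 CPM (adjusted p 0.294), and Krt5 674, 485 and 438 and then 497, 451 and 653 CPM (adjusted p 0.648). Krt20 was 108, 95.01 and 103 CPM in intact tissue and 42.3, 43.4 and 96.0 CPM in dissociated cells (log2 change -0.64, SE 0.31, adjusted p 0.111). Of the 3 dissociated libraries, the third was the highest in Krt5, Krt7, Krt15, Krt8, Krt18, Krt19 and Krt20. Without it, Krt20 was lower by -1.15 (SE 0.09, adjusted p 8.29e-05). The 4 uroplakins were all called lower in dissociated cells, from Upk2 (-1.81) to Upk3a (-0.95), where 31.3% of 16538 genes were called lower.

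Scaling decided several of these directions. When libraries were scaled to 14 epithelial genes, the median of all genes moved from -0.03 to -0.84 and 64.6% of genes were called, 5.9% higher and 58.7% lower. Then Krt20 (-1.57, adjusted p 5.73e-08), Krt5 (-0.73, adjusted p 0.0111) and Krt7 (-0.63, adjusted p 0.0341) were lower, Krt15 (-0.12), Krt19 (-0.31) and Krt18 (-0.50) went below 0 without a call, and Krt8 (0.12) was not called, while Krt14 was still called higher (1.60, SE 0.58, adjusted p 0.0105). The scaling used the summed reads of the 14 genes. Their own median was 0.16 in the TMM fit and -0.72 after scaling, with 3 called higher and 7 lower. The epithelial genes were unequal, with Cldn4 at 2.51 and Prss8 at -1.36 in the TMM fit. Ratios within a library do not depend on scaling. Krt8 reads per Krt18 read were 0.772, 0.751 and 0.770 in intact tissue and 1.09, 1.25 and 1.19 in dissociated cells. Krt15 reads per Krt20 read were 7.20, 6.67 and 6.59 and then 21.8, 22.8 and 13.7. Krt5 reads per Krt20 read were 6.25, 5.10 and 4.24 and then 11.7, 10.4 and 6.80. All 3 ratios were higher in every dissociated than in any intact library. For single genes, 67.9% of 16538 did not overlap in CPM between the groups. The ratios rest on the same reads as the changes above and are not a separate test. Fewer cells of a type and less RNA per cell cannot be told apart in bulk samples.

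Some keratins outside the 8 differed by more than any of them. Of 14 tested, 7 were higher and 1 lower in dissociated cells, a share near the 59.2% of all genes, with a median log2 change of 1.12 against -0.03 over all genes. Krt6a, a keratin of stressed and wounded epithelium, had 1, 0 and 2 reads in intact tissue and 252, 449 and 492 in dissociated cells. Krt23 had 138, 292 and 165 and then 5149, 7778 and 11292 reads (log2 change 5.97, adjusted p 2.23e-05), which brought it to 183 to 467 CPM. Krt13, a keratin of stratified mucosa, had 3, 16 and 5 and then 226, 309 and 507 reads. Krt83 and Krt87 held identical counts in every library, so the counting did not separate them and the 7 hold them as 2. Krt1 was the lower one (-0.78, adjusted p 0.0462), and Krt4 (0.10) and Krt10 (-0.06) were not called. Krt23, Krt13, Krt83, Krt87, Krt4 and Krt10 are named here after their values were seen. Over the same libraries 16 of 16 dissociation-response genes were higher, with a median log2 change of 4.83. Whether the keratins belong with that response was not tested.

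**Figure D5:**
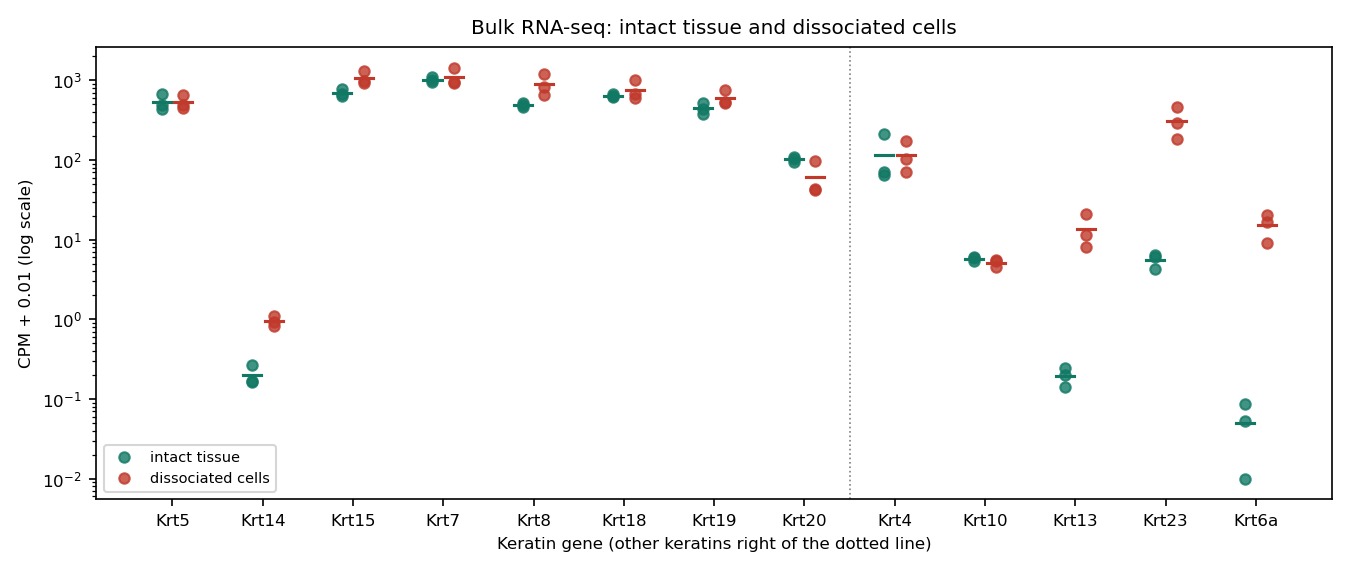
CPM + 0.01 on a log scale for the 8 keratins and 5 other keratins in 3 intact and 3 dissociated bulk libraries. Points are libraries and bars group means. Krt8, Krt15 and Krt14 do not overlap between the groups, as for 67.9% of all genes tested, and Krt13, Krt23 and Krt6a are apart by the widest margins.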

How the data were processed

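The deposited tables hold UMI counts per gene and droplet or spot, and read counts per gene for bulk libraries. Per the submitters' processing notes the authors used mm10, bcl2fastq, Cell Ranger, Space Ranger, Subread and featureCounts. Versions are not given in the sources used here. Totals ran from 5197910 UMIs (nuclei) to 55374101 (detrusor-enriched) in droplet libraries, 21976101 to 32021223 in sections and 23083752 to 68760791 reads in bulk. Depth sets the precision of low genes, above all Krt14.

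With Python 3.11.15 and scanpy 1.11.5, barcodes with 500 or more UMIs and no more than 20% mitochondrial counts passed, and doublets were removed at 0.8% per 1000 cells. Each library was clustered without keratins (2000 variable genes, 30 components, 15 neighbours, resolution 1). A marker counted as raised when it was in 10% of a cluster's cells at 2-fold, and a name needed 3 markers and a score of 0.25. How ambiguous clusters were handled was settled after the clusters were seen. CPM leaves out mitochondrially encoded genes. Spots needed 500 UMIs.

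Sums per library were tested with edgeR 4.0.16 in R 4.3.3 (quasi-likelihood, TMM, filtered on low counts, two-sided, Benjamini-Hochberg over all genes tested, threshold 0.05), with DESeq2 1.42.0 as an alternative. Library or section was a block for quintiles. For the 1 nuclei library the spread was taken from the cell libraries. The scripts were tested on simulated data. Other settings covered normalization, filters, clustering, thinning to 1000 UMIs and left-out libraries. The 8 keratins were named throughout, for each the 3 genes most like it (1 of these is not reported here), and for each gene list the highest and lowest called member. The members and lists were chosen with earlier results of these data known.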

Additional observations from a re-analysis of the deposited data

Results flagged for a closer look

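The change from the lowest to the highest uroplakin quintile differed between the mixed-sex and the male whole-bladder libraries for 4 keratins, by an interaction term in edgeR. The term was added after seeing the data, and 0.778% of 9249 genes were called. The difference in log2 change, mixed-sex minus male, was -0.67 for Krt5 (adjusted p 0.0112), -0.76 for Krt8 (adjusted p 0.012), -0.51 for Krt18 (adjusted p 0.0169) and -0.45 for Krt19 (adjusted p 0.0192). Krt15 (-0.96, adjusted p 0.132), Krt20 (-0.39, adjusted p 0.75) and Krt7 (-0.03, adjusted p 0.926) did not pass. Each change kept its sign in both kinds of library, and every one of the 5 libraries moved in that direction. The 2 male libraries had a median of 3163 and 4098 UMIs per urothelial-like cell, against 12502 to 16878 in the 3 mixed-sex ones, and what sets them apart was not tested.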

How the results depend on the processing

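Of 579 alternatives for single keratins, 529 kept direction and side of the threshold, 18 lost the call, 14 gained one, 17 changed sign and 1 moved. For the uroplakin quintiles in cells, 2850 genes became 1817 with DESeq2, 536 with cells thinned to 1000 UMIs, 593 without the library block (3 keratins called) and 598 in male libraries alone. Leaving out 1 library gave 1651 to 3307 genes and 6 to 7 keratins. Krt8 lost its call with 3 bins in place of 5 (adjusted p 0.0669), Krt15 without a filter (adjusted p 0.0515) and Krt5 in male libraries alone (adjusted p 0.0521), and Krt5, Krt7, Krt8 and Krt20 without the block. For nuclei, 4671 genes became 7501 against mixed-sex libraries, 3458 to 4911 leaving out 1 library (4 to 5 keratins), and 2 keratins were called with library size alone. There Krt5 (0.10), Krt14 (0.73) and Krt20 (0.23) changed sign, as did Krt14 against mixed-sex libraries (0.33) and, over libraries left out (-0.57 to 0.022), without the 22-month one. In bulk, 9798 genes became 1789 (1 keratin) with a log2 minimum of 1, and 8128 to 9782 (3 to 4 keratins) leaving out 1 library. Scaled to epithelial genes, Krt5 (-0.73), Krt7 (-0.63), Krt15 (-0.12), Krt18 (-0.50) and Krt19 (-0.31) changed sign. Leaving out 1 library, Krt5 ranged from -0.071 (without the third dissociated library) to 0.32, and was -0.02 without the third intact one, and Krt7 ranged from -0.015 (without the third dissociated library) to 0.38. For section age, 0 genes became 426 with DESeq2 (2 keratins), 287 without a filter (1 keratin) and 0 to 300 (0 to 2 keratins) leaving out 1 section. Leaving out 1 section, Krt14 ranged from -0.45 to 0.85 (below 0 without the first 22-month, -0.37, or the second 14-month section) and Krt8 from -0.15 to 0.13 (above 0 without the first 22-month, 0.04, or the first 14-month section). Spot quintiles gave 8060 to 8692 genes and 7 keratins in each, and 7 to 8 keratins stood above fibroblast-like cells in every library left. With log2(CPM + 10) the Krt20 difference from fibroblast-like cells was 1.77. No pairing of the bulk libraries is stated (same-number correlations 0.20, 0.34 and -0.07). Not every library correlated best with its own number, but 3 libraries per group cannot decide whether the numbers pair them. The replicate block gave 10011 genes and 4 keratins. Counting the unnamed 109 cells as urothelial-like, chosen after seeing the data, gave 3141 genes and 7 keratins along the quintiles. Causes of these changes were not tested, and Krt14 is limited by its depth.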

Other observations

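The unnamed cluster of the second 12-month library, 109 cells with a median of 27591 UMIs, held Krt20 at 69.2, Krt5 at 273 and Krt15 at 870 CPM, beside Upk3a at 5297 CPM. The named urothelial-like cells of that library held 62.3, 560, 3780 and 2422 CPM of the same 4 genes. Its leading genes included the small proline-rich genes Sprr2a1, Sprr2a2, Sprr2a3 and Sprr2b. The cluster was described after its values were seen.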
